A study of Mus musculus with 6 samples.

Results

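Gdf9, Bmp15, Bmp6, Fgf8, Kit and Kitl encode signals that pass between the oocyte and the cumulus cells around it, and were followed here by gene symbol through every library. All 6 genes were listed among the 14165 genes of the table of oocyte pools and among the 54658 gene entries of the single-oocyte table, and all 6 were among the 11136 genes tested in the pools. The study measured polyadenylated RNA of mouse oocytes at metaphase II (MII), the arrest in which an ovulated oocyte waits for fertilisation, by Smart-seq2, a PCR-amplified full-length cDNA method. It asked what Plat, the gene of tissue-type plasminogen activator, does in aged oocytes. The 6 samples fell into 4 groups. One sample held 35 single oocytes from young mice and one held 59 single oocytes from aged mice. The other 4 samples were pools of 10 young oocytes. Of these, 2 received control siRNA (siCtrl) and 2 received siRNA that targets Plat (siPlat), siRNA being short RNA that directs the destruction of a matching mRNA. Strain, genotype, age in weeks, the animals behind each sample and the way the RNA was delivered are not stated in the labels. The p-values therefore measure only the spread between these pools, which may be technical.

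GDF9, BMP15 and BMP6 are ligands of the transforming growth factor beta (TGF-beta) family, which bind pairs of type I and type II receptor kinases and act through Smad proteins in the receiving cell. GDF9 and BMP15 are secreted by the oocyte and drive the growth, metabolism and expansion of cumulus cells, and FGF8, a fibroblast growth factor from the oocyte, cooperates with BMP15 in this. In the other direction, KIT is a receptor tyrosine kinase on the oocyte, and its ligand, encoded by Kitl, is made mainly by granulosa cells. An MII oocyte is transcriptionally silent, so its mRNAs are stored from growth and are used or degraded during maturation.

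The pools held 12142884 to 17475952 gene counts. The young single oocytes held 5480050 to 11894782 (median 8564642) and the aged ones 2018226 to 9502184 (median 5928662). Among the aged oocytes, 21 of 59 had more than 5% of their counts on mitochondrially encoded genes (6.78% to 61.6%), against 0.688% to 1.92% in the young ones and 0.947% to 2.97% in the other 38 aged ones. These 21 libraries also had fewer genes with a count (median 9394, against 16539 in young oocytes), so the levels and ratios of the 6 genes in aged oocytes are given with and without them. Ratios scaled by added spike-in RNAs are given for all 59 only. Plat stood at 441 and 439 CPM (counts scaled to a common library total) in the siCtrl pools and at 51.4 and 39.0 CPM in the siPlat pools, a fall by 3.28 on the log2 scale (SE 0.19, edgeR adjusted p = 6.21e-06). The 12 oocyte markers summed to a median of 20002 CPM in young oocytes, 21479 in the 38 and 1140 in the 21. Of 20 cumulus and granulosa markers, 8 were listed in the pool table and summed to 44.1 and 53.9 CPM in siCtrl and 39.9 and 59.1 CPM in siPlat. In young oocytes all 20 summed to a median of 85.0 CPM, most of it from Cyp19a1 and Nr5a2. Amh, Fshr, Foxl2, Inhbb and Slc38a3 were at 0 in all 35 young oocytes.

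The members covered a wide range of abundance, with Gdf9 highest. Per kilobase of exon, young oocytes held 3755 to 7278 CPM of Gdf9 (median 5871) and 812 to 2027 of Bmp15 (median 1347). Kit followed at 55.8 to 132 (median 80.8), and none of these 3 ranges overlapped the next. Bmp6 (4.44 to 22.6), Fgf8 (1.41 to 7.35) and Kitl (0.635 to 2.57) were low, and the ranges of neighbours in this order overlapped. In the siCtrl pools the means per kilobase came in the same order, from 1629 CPM for Gdf9 and 662 for Bmp15 down to 1.31 for Kitl, although by the longest transcript in place of all exons Fgf8 (4.46) stood just above Bmp6 (4.45). By CPM, Gdf9 ranked 4 and Bmp15 ranked 15 among the 8230 genes of the young oocytes that were compared for spread.

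Gdf9 lies on chromosome 11 at 53431023 to 53437904 (plus strand) and Bmp15 on the X chromosome at 6314107 to 6320721 (minus strand), each with 2 exons, in GENCODE coordinates of GRCm38, the assembly that mm10 names. Bmp6 lies on chromosome 13 at 38345107 to 38500302, Fgf8 on chromosome 19 at 45736798 to 45742915, Kit on chromosome 5 at 75574916 to 75656722 and Kitl on chromosome 10 at 100015630 to 100100416. Bmp6 overlaps Txndc5 and an antisense gene on the other strand, and the strand setting of the counting was not given, so its counts are uncertain. Promoters from RefSeq (GRCm38.p6) were matched for 4 of the 6 members, not for Gdf9 and Fgf8. The 250 bases upstream of the Bmp15 start are shown because Bmp15 is an oocyte-specific gene, and NOBOX and FIGLA, oocyte transcription factors, are known to bind the element TAATTG or TAATTA and the E-box CANNTG. Both motifs were searched on both strands, and matches are in capitals.
Bmp15, chrX:6320725-6320974, minus strand: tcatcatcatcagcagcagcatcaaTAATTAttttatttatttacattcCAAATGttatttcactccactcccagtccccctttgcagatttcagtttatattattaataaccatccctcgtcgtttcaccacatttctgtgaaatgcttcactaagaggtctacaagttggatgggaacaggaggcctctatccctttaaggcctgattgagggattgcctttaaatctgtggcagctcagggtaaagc
The Bmp15 window held 1 NOBOX element, TAATTA at -225 from the start, and 1 E-box, CAAATG at -201, and the matches did not overlap. Of 27025 promoter windows of this length, 11.5% held a NOBOX element and 66.0% an E-box. The Bmp6 window held 2 E-boxes (CACGTG at -127 and CACCTG at -51) and no NOBOX element, and the windows of Kit and Kitl held neither motif. These windows are counted from RefSeq starts. That of Bmp6 (38345466 to 38345715) lies inside the GENCODE interval given above, and those of Kit and Kitl run into theirs. A match is a description of letters and not a measured binding site. Of the 2 factors, Nobox was at 134 and 156 CPM in siCtrl and at 82.2 and 107.8 CPM in siPlat (edgeR adjusted p = 0.111), and Figla at 2.74 and 5.30 against 1.98 and 1.73 CPM (adjusted p = 0.293).

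The comparison of siPlat with siCtrl pools asked which of these signals changed when Plat was depleted. Gdf9 mRNA fell, and it was the only member that passed the test. Gdf9 measured 2824 CPM in siCtrl 1 and 3017 CPM in siCtrl 2, against 1545 CPM in siPlat 1 and 1724 CPM in siPlat 2. Both siPlat pools were below both siCtrl pools. The mean went from 2920.5 ± 136 CPM (SD, n = 2) to 1635 ± 127 CPM (SD, n = 2), which is 1.79-fold lower (log2 fold change -0.84, SE 0.14, edgeR adjusted p = 0.0102). Of 12 oocyte markers in the same fit, 3 were called lower (Mos at -1.64, Zp1 at -1.31 and H1f8 at -0.65) and none higher, with a list median of -0.39. Zp2 (-1.45), Zp3 (-1.11), Nlrp5 (-0.63) and Padi6 (-0.14) were also lower, without a call. Dppa3 (0.39), Oosp1 (0.27), Npm2 (0.23), Zar1 (0.12) and Ooep (0.02) were higher, without a call. Over all tested genes the median was -0.03, and 1.41% were called lower. The part of the marker changes in the fall of Gdf9 was not tested. In all, 1 of 6 members was called, against 3.54% of all tested genes in either direction and 1.41% among the lower calls. The call for Gdf9 was lost without siCtrl 1 (adjusted p = 0.0667) and without siCtrl 2 (adjusted p = 0.108), with log2 fold changes of -0.88 and -0.79. Over all alternatives its adjusted p ranged from 3.54e-05 to 0.108.

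**Figure D1:**
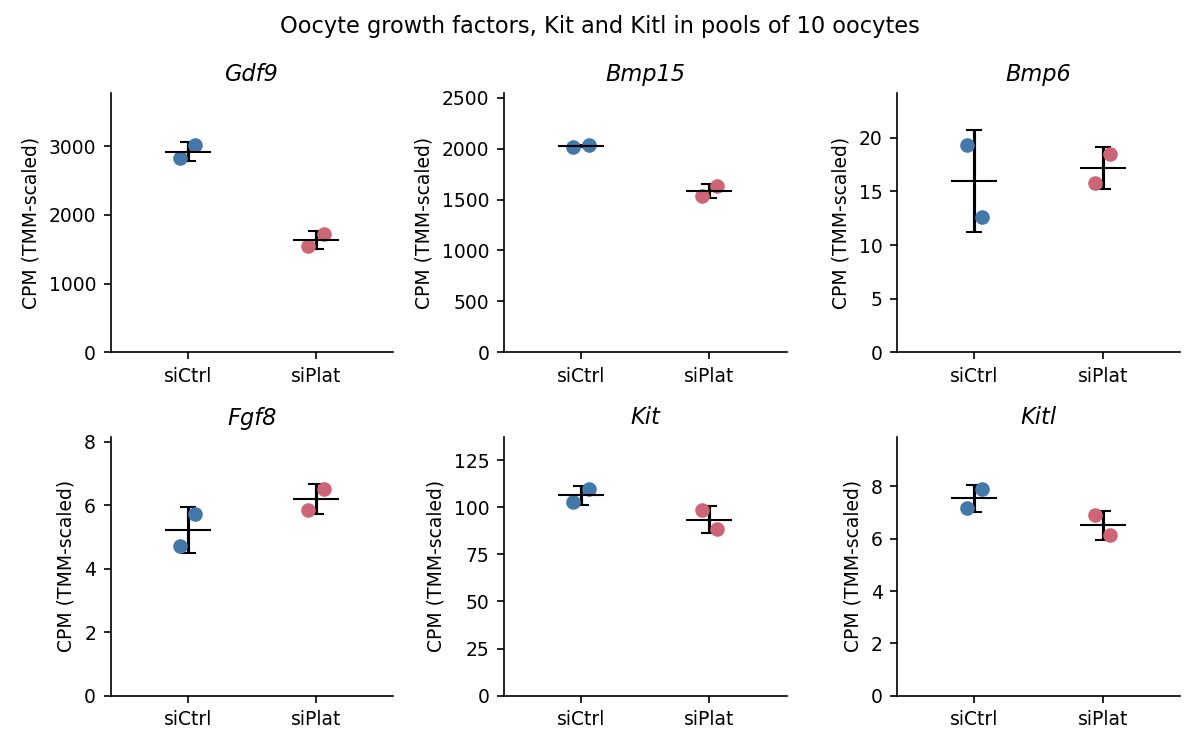
CPM of the 6 members in each of the 4 pools after TMM scaling, siCtrl and siPlat side by side, 1 panel per gene, with points for single pools and bars for the mean ± SD. Gdf9 sits at 2824 and 3017 CPM in siCtrl and 1545 and 1724 CPM in siPlat, while the 2 groups overlap for Bmp6.

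Bmp15, the partner of Gdf9, did not pass the test. It stood at 2017 and 2035 CPM in siCtrl and 1539 and 1634 CPM in siPlat. Again both siPlat pools were below both siCtrl pools. The log2 fold change was -0.35 (SE 0.14, unadjusted p = 0.0242, edgeR adjusted p = 0.187). Because GDF9 and BMP15 act together, their balance was also taken within each pool, where scaling between libraries has no part. Bmp15 made up 41.7% and 40.3% of the summed Gdf9 and Bmp15 counts in siCtrl and 49.9% and 48.7% in siPlat, a difference of 8.31 percentage points. The exact two-sided permutation test gave p = 0.333, the smallest value that 2 pools against 2 allow. These shares are of reads, without a correction for exonic length (3060 bases for Bmp15 and 1793 for Gdf9). Equal shares therefore do not mean equal levels per kilobase. In siPlat the means per kilobase were 912 CPM for Gdf9 and 518 CPM for Bmp15.

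The other growth factors and the Kit pair did not pass the test. Bmp6 stood at 19.3 and 12.6 CPM in siCtrl and 15.8 and 18.5 CPM in siPlat, with overlapping groups (log2 fold change 0.10, SE 0.28, adjusted p = 0.906). Fgf8 stood at 4.70 and 5.72 CPM against 5.86 and 6.52 CPM (0.25, SE 0.36, adjusted p = 0.779). These rest on 179 to 345 reads of Bmp6 and 68 to 84 reads of Fgf8 per pool. Kit, the receptor, stood at 103 and 109.8 CPM in siCtrl and 98.3 and 88.3 CPM in siPlat (-0.19, SE 0.17, adjusted p = 0.625). Kitl stood at 7.17 and 7.91 CPM against 6.89 and 6.13 CPM (-0.21, SE 0.33, adjusted p = 0.798). Outside Bmp6, the pools of 5 members did not overlap between groups, 4 of them lower and 1 higher in siPlat, and 49.4% of all tested genes did not overlap either. The median log2 fold change was -0.20 over the 6 members and -0.03 over all tested genes. Each pool was of 10 oocytes, so whether a change was shared by all 10 cannot be told. For any other cells carried along, fewer cells and less RNA per cell cannot be told apart.

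Among the other genes of these pathways, 10 lists with 165 symbols, 103 were tested, 3 rose and 1 fell, and their median log2 fold change was -0.07. The share called, 3.88%, was close to the 3.54% of all tested genes, of which 2.13% were higher and 1.41% lower. Of these 4, Smad4, Bmp5 and Daam1 are described. Smad4, the shared partner of the receptor-regulated Smads, rose from 104.8 and 98.0 CPM to 152 and 262 CPM (log2 fold change 1.03, SE 0.23, adjusted p = 0.0398), so the 2 siPlat pools were far apart. Bmp5, another ligand of the family, rose from 329 and 289 CPM to 479.5 and 476 CPM (0.63, SE 0.15, adjusted p = 0.0490). Daam1, a formin that organises actin and stood in the list of gap junction and transzonal contact genes, fell from 159 and 152 CPM to 69.9 and 63.9 CPM (-1.21, SE 0.17, adjusted p = 0.00425). The calls of Smad4 and Bmp5 were lost without siCtrl 1 (adjusted p of 0.135 and 0.217) or siCtrl 2 (0.186 and 0.427), and over all alternatives the adjusted p went down to 3.05e-06 and 0.00533. Daam1 passed in every setting tried (adjusted p of 8.31e-08 to 0.0238). None of the 9 tested TGF-beta family receptors, 5 convertases and processing genes, 14 FGF ligands and receptors, 10 oocyte transcription factors, 6 antagonists and co-receptors or 12 other oocyte-made growth factors was called by edgeR at an adjusted p under 0.05.

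**Figure D2:**
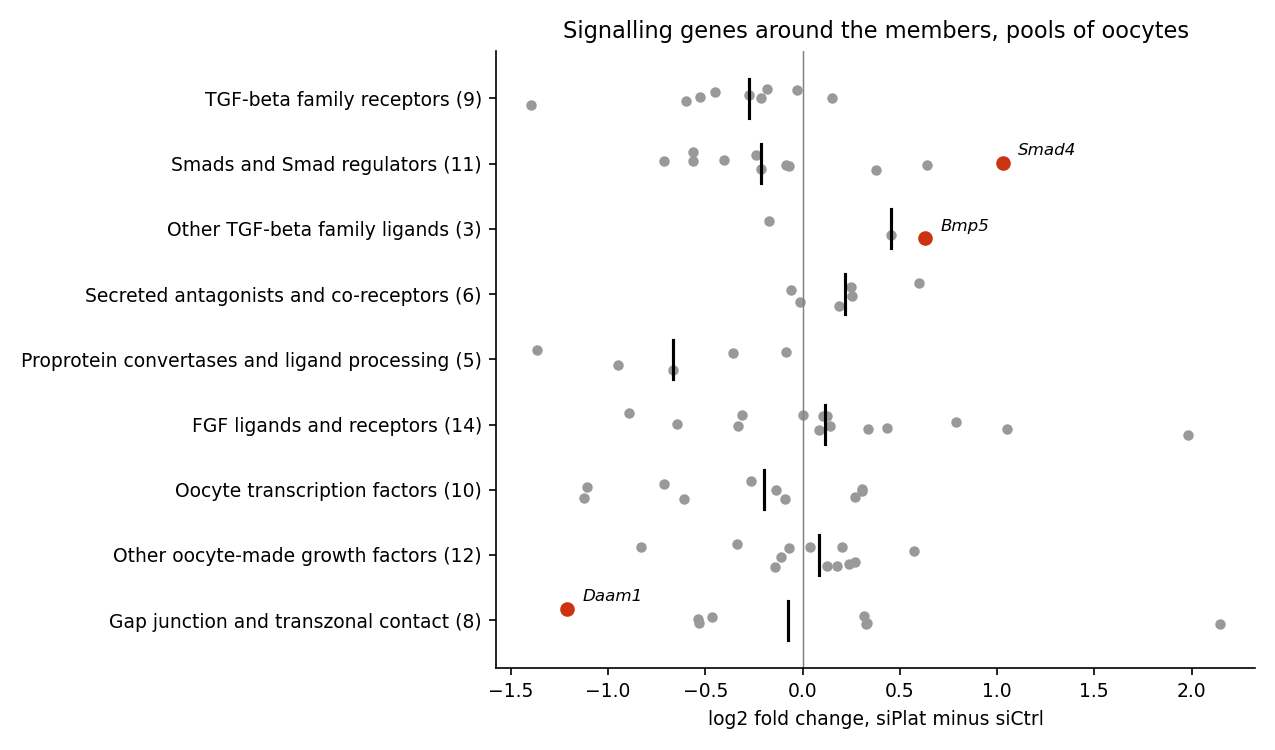
Log2 fold change of siPlat against siCtrl for each tested pathway gene (points), by list, the Kit signalling list left out, with the number tested in brackets and a black tick at each list's median. The called genes, in red, are Smad4 at 1.03, Bmp5 at 0.63 and Daam1 at -1.21.

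The second comparison set aged against young single oocytes. With a single sample per age there was no test, and the intervals below cover counting error only and treat PCR reads as independent molecules. Gdf9 was lower in the aged sample, and the log2 ratios of the other members lay between -0.24 and 0.56. Gdf9 summed to 10368 CPM in young oocytes (exact 95% Poisson interval 10357 to 10380) and to 5635 CPM in all 59 aged oocytes (5627 to 5642), a log2 ratio of -0.88, and 1.61% of the genes compared had a lower ratio. Bmp15 was at -0.16, Bmp6 at 0.01, Fgf8 at -0.24, Kit at -0.15 and Kitl at 0.56. So 1 of 6 members was at least 1.5-fold lower, against 9.38% of the 8303 genes with a mean of at least 5 CPM. Without the 21 libraries of high mitochondrial share it was 0 of 6, against 1.87% of 8413 genes, with Gdf9 at -0.43, Bmp15 at 0.20, Bmp6 at 0.22, Fgf8 at 0.08, Kit at 0.21 and Kitl at 0.28 (median of all genes 0.08). Then 4.71% of genes had a lower ratio than Gdf9. These values are relative to the total RNA counted in a library. Scaled by the ERCC spike-ins, synthetic RNAs counted beside the oocyte's own, all 6 members were lower over all 59 aged oocytes, Bmp6 (-1.47) and Kitl (-0.87) included. On that scale 7951 of 8303 genes were at least 1.5-fold lower, with the median of all genes moving from -0.07 to -1.55. The 21 libraries of high mitochondrial share are part of these values, and the scaling was not made without them. Either scaling divides all genes of a group by the same number. The order of the genes could therefore change only through the pseudocount, which was left out with ERCC. The share of genes with a lower ratio was 57.2% for Bmp6 with either scaling, and for Kitl 89.7% by gene totals and 90.3% by ERCC. This likeness was fixed by the calculation and is not a result about these genes.

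Oocyte by oocyte, Gdf9 ran from 6733 to 13050 CPM in young oocytes (median 10527) and from 3905 to 10976 CPM in the 38 aged oocytes with a mitochondrial share of at most 5% (median 7493). Of these 38, 11 lay below the lowest young oocyte and 0 above the highest. Bmp15 ran from 2484 to 6204 CPM in young (median 4123) and from 2884 to 6395 CPM in the 38 (median 4715), so the ranges were nearly the same. Kit ran from 293 to 694 CPM in young (median 424.5) and from 351 to 702 CPM in the 38 (median 536). Bmp6 had medians of 34.8 and 40.7 CPM, and all 38 oocytes lay within its young range. Fgf8 had medians of 5.16 and 5.74 CPM, with 1 oocyte below and 1 above the young range. Kitl, the ligand made mainly by granulosa cells, had medians of 8.76 and 11.4 CPM, and 7 of the 38 exceeded the highest young oocyte. Beside Kitl, the cumulus and granulosa markers summed to 49.6 to 109 CPM in the 38 and 58.4 to 117 CPM in young oocytes, and their part in Kitl was not tested. All 35 young oocytes and all 38 of these aged ones held a count of every member.

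**Figure D3:**
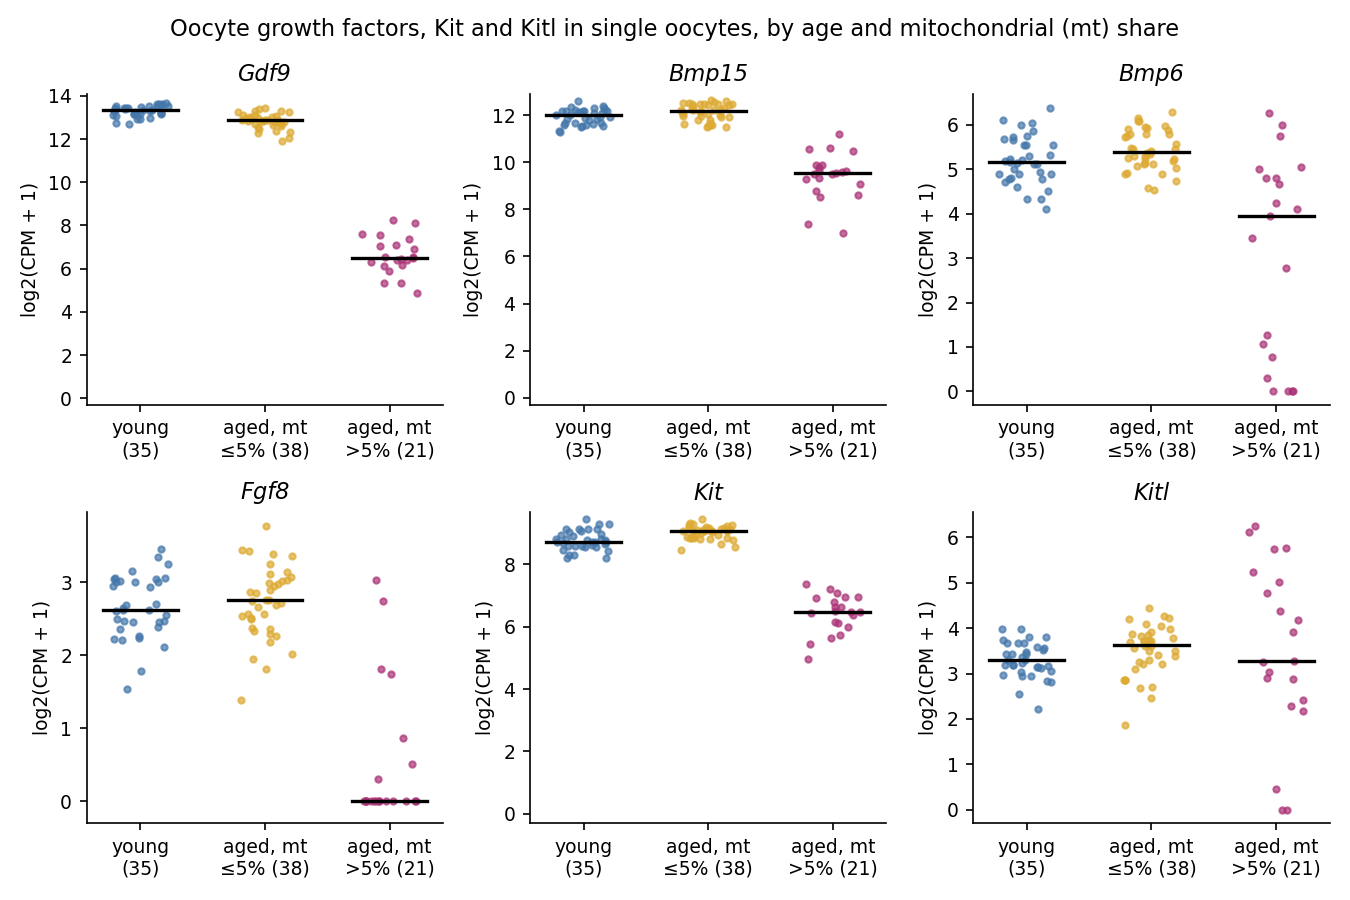
Level per oocyte of the 6 genes as log2(CPM + 1), 1 point per oocyte, in 35 young oocytes, 38 aged oocytes with a mitochondrial share of at most 5% and 21 above it, with bars at the medians. In CPM, Gdf9 has medians of 10527, 7493 and 88.9 CPM, while Kitl has medians of 8.76, 11.4 and 8.65 CPM.

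The 21 aged oocytes above 5% held far less Gdf9 than the other 38. Gdf9 ran from 28.7 to 307 CPM (median 88.9), and its summed level of 126 CPM was 60.6-fold lower than in the other 38 (log2 ratio -5.92). Only 0.284% of the 8087 genes compared had a lower ratio, and the median of all of them was -0.94. Bmp15 ran from 125 to 2337 CPM (median 754) and was 5.20-fold lower, and Kit ran from 30.6 to 163 CPM (median 87.4) and was 5.58-fold lower. For Gdf9, Bmp15 and Kit, each of the 21 lay below the lowest young oocyte. Bmp6 ran from 0 to 75.6 CPM (median 14.5), and its summed level was 21.2 CPM against 43.4 in the 38. Scaled to nuclear-encoded totals, its log2 ratio was -0.53, where the median of all genes was -0.48. Fgf8 ran from 0 to 7.18 CPM, with a median of 0. Kitl ran from 0 to 75.03 CPM, with 9 of the 21 above the young range and 4 below it. Its median was lower than in the 38 (8.65 against 11.4 CPM), while its summed level was higher (21.1 against 11.2 CPM). The cumulus and granulosa markers summed to 0.232 to 63.6 CPM in these 21, and 9 of the 20 were at 0 in each. Of the rest, Nr5a2 reached 63.6, Has2 13.3 and Tnfaip6 9.28 CPM, where the highest young values were 26.1, 2.41 and 1.68 CPM. Their medians were 19.9, 0 and 0 CPM in the 21 and 12.1, 0.597 and 0 CPM in young oocytes. Lhcgr and Inhba also reached above their highest young values, while Star, Ptgs2, Inha, Fst and Gja1 stayed below theirs. The median of the summed markers was 30.6 CPM in the 21, against 85.0 CPM in young oocytes. Cyp19a1 stood lower, at most 22.7 CPM against at least 44.6 CPM in young oocytes. The blood and immune markers summed to at most 130 CPM, against at most 21.2 CPM in young oocytes. By the median their sum was lower in the 21, at 1.64 CPM against 12.4 CPM in young oocytes. The part of these markers in Kitl was not tested. Of the members, 4 (Gdf9, Bmp15, Bmp6 and Kit) of the 5 with a mean of at least 5 CPM were at least 1.5-fold lower, against 58.5% of all genes. With totals of nuclear-encoded genes only, Gdf9 stayed 43.3-fold, Bmp15 3.71-fold and Kit 3.99-fold lower, and Bmp6 was 1.44-fold lower.

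Detection of the low members was incomplete among aged oocytes. A count of Fgf8 was found in 45 of 59 aged oocytes (76.3%, exact binomial 95% interval 63.4% to 86.4%), and the 14 without one were all among the 21 of high mitochondrial share. The interval treats oocytes of 1 sample as independent draws and says nothing of the spread between animals or samples. Bmp6 was found in 55 of 59 (93.2%, 83.5% to 98.1%) and Kitl in 57 of 59. After each oocyte was thinned to 2000000 counts, Bmp6 was found in 54 of 59.

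The balance of Bmp15 and Gdf9 within an oocyte also differed between the groups. Bmp15 made up 20.7% to 37.8% of their summed counts in young oocytes (median 29.1%) and 24.9% to 59.96% in the 38 aged oocytes (median 37.1%). Of the 38, 15 were above the highest young oocyte and 2 were above 50%. In the 21 it was 37.0% to 96.3% (median 87.9%), and 20 of them were above 50%. The ratio lies within a library, so scaling does not touch it, but it is not corrected for exonic length. Beside these shares the siCtrl pools stood at 41.7% and 40.3% and the siPlat pools at 49.9% and 48.7%, from a table counted separately. Both siCtrl pools, which are of young oocytes, thus lay above the highest young single oocyte (37.8%). No test was made between tables.

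**Figure D4:**
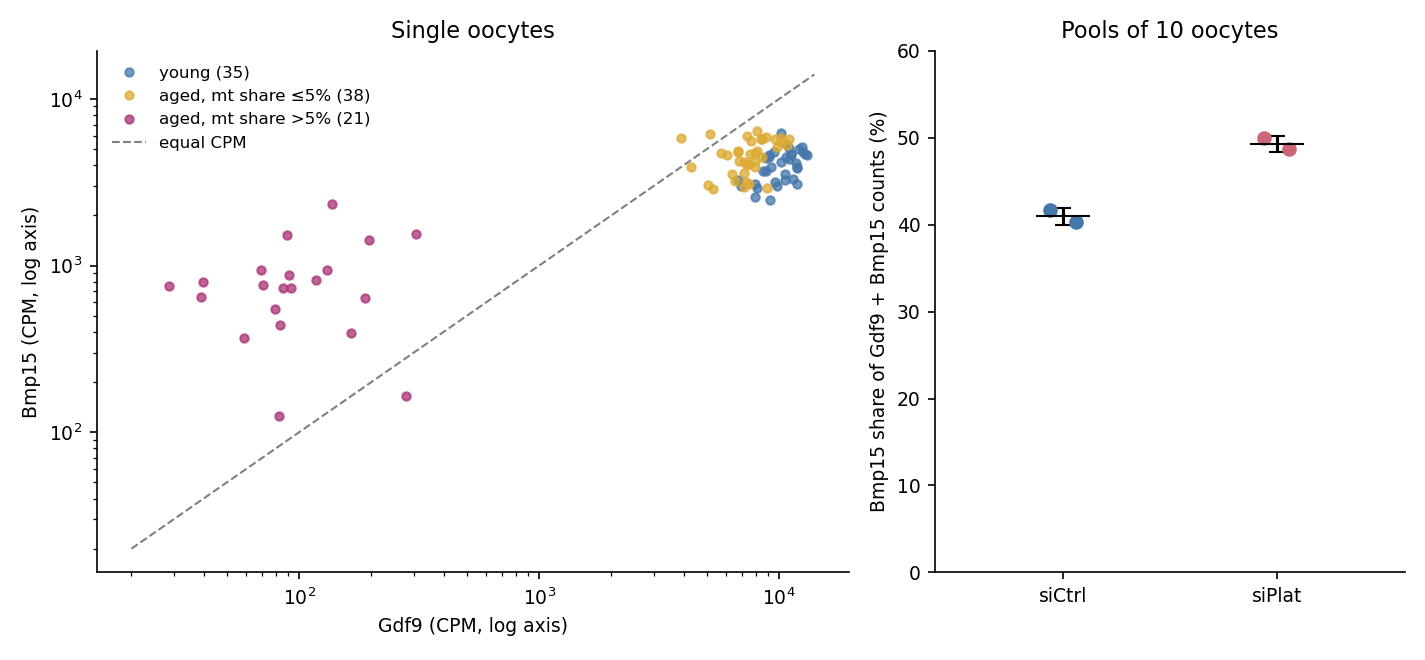
On the left, Bmp15 against Gdf9 in single oocytes (CPM, log axes, 1 point per oocyte, dashed line at equal CPM); on the right, the Bmp15 share of both genes' counts in the pools (%, points with mean ± SD). Young oocytes lie at Bmp15 shares of 20.7% to 37.8% and the 21 aged oocytes of high mitochondrial share at 37.0% to 96.3%, and the siPlat pools (49.9% and 48.7%) lie above the siCtrl pools (41.7% and 40.3%).

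The members differed in how much they varied between young oocytes. Gdf9 had a coefficient of variation of 16.3%, and 13.5% of 8230 genes had a lower one, where the median of all genes was 27.1%. Bmp15 had 21.7% and Kit 21.99%, also below the median. Kitl had 28.7%, Fgf8 33.8% and Bmp6 40.1%, and 82.8% of genes varied less than Bmp6. Genes of all levels were compared together. Median reads per young oocyte were 93139 for Gdf9, 311 for Bmp6, 71 for Kitl and 46 for Fgf8. The part of counting error in these spreads was not tested. The following are descriptions across oocytes of 1 sample, which share library preparation and depth. Gdf9 and Bmp15 had a Spearman rho of 0.51 across the 35 young oocytes and 0.39 across the 38 aged ones. Kit went with both (0.47 with Gdf9 and 0.50 with Bmp15 in young). Bmp6 went against both (-0.54 with Gdf9 and -0.71 with Bmp15 in young, -0.46 and -0.43 in the 38).

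Each of the 4 members with a mean of at least 20 CPM had its own set of nearest genes among 5129 compared, by Spearman rho across the 35 young oocytes. For Gdf9 they were Astl (0.87), a cortical granule protease of the egg, Smoc2 (0.84), Gpx3 (0.83), Tbccd1 (0.82) and Tubg2 (0.80), and across the 38 aged oocytes their rho was 0.90, 0.69, 0.72, 0.79 and 0.67. For Bmp15 they were Zp2 (0.89), a zona pellucida protein, Nlrp14 (0.86), Tle6 (0.84), a subunit of the subcortical maternal complex, Icosl (0.83) and Elmod2 (0.82). In the aged oocytes Icosl was at 0.01 and Zp2 at 0.86. For Bmp6 they were Rab21 (0.92), Ppfia1 (0.91), Cnot6l (0.91), a deadenylase subunit, Ankrd17 (0.91) and Fam8a1 (0.91), all between 0.80 and 0.83 in the aged ones. For Kit they were Rhpn2 (0.89), Uhrf1 (0.87), Tom1l2 (0.87), Pabpc1l (0.87), an oocyte poly(A)-binding protein, and Copa (0.87), at 0.43 to 0.64 in the aged ones.

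In single oocytes, most of the wider pathway stood near the young level. Of the 165 pathway symbols, 85 had a mean of at least 5 CPM over young oocytes and the 38 aged ones, and their median log2 ratio was 0.04, with 4 (4.71%) at least 1.5-fold lower and 7 (8.24%) at least 1.5-fold higher. Over all genes these shares were 1.87% lower and 8.87% higher, with a median of 0.08. Among the lower genes were Gata4, Il7 and Efna5, and the 7 higher were Fgf10, Hs6st1, Pik3r1, Nobox, Oosp2, Myo10 and Daam1, all named after their values were seen. Over all 59 aged oocytes the counts were 14 lower (16.9%) and 12 higher (14.5%) of 83, against 9.38% and 9.45% of all genes. Daam1, which fell in the siPlat pools, was at 0.87 over all 59 aged oocytes and at 0.68 in the 38 (median 154 CPM in young and 240.2 CPM in the 38).

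The following are the 2 genes of highest CPM in each list, as log2 ratios of aged over young oocytes, first over all 59 aged oocytes and then over the 38. Among receptors, Bmpr1b, a type I BMP receptor, was at -0.07 and 0.14 and Bmpr2, the type II receptor that binds GDF9 and BMP15, at 0.68 and 0.32. Smad3, a signal-carrying Smad, was at 0.18 and 0.15, and Ski, a Smad repressor, at -0.04 and 0.34. Among other ligands, Tgfb2 was at 0.08 and -0.01 and Bmp5 at -0.13 and -0.30. The co-receptors Neo1 (-0.23 and 0.14) and Rgmb (-0.67 and -0.24) were lower over all 59 than over the 38. Furin, a convertase that cleaves TGF-beta family precursors, was at -0.42 and 0.01, and its relative Pcsk6 at -0.13 and 0.00. In the FGF list, the feedback inhibitor Spry4 was at 0.14 and -0.01 and the proteoglycan Sdc1 at -0.80 and -0.39. Foxo1, which Akt holds out of the nucleus downstream of KIT, was at -0.23 and 0.08, its relative Foxo3 at -0.15 and -0.08, and Stat3 at -0.69 and -0.46. Oosp1, an oocyte-secreted protein, was at -0.11 and 0.28, and the Notch ligand Jag1 at -0.97 and -0.55. The junction genes Ctnnb1 (-0.86 and -0.42) and Cdh1 (-0.62 and -0.19) were also lower over all 59. Over all 59, Bmpr2 was at least 1.5-fold higher and Rgmb, Sdc1, Stat3, Jag1, Ctnnb1 and Cdh1 at least 1.5-fold lower. Over the 38, none of these genes reached a 1.5-fold difference.

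The control pools and the young single oocytes were counted in separate tables, so their levels are set side by side over the 13661 genes that share a symbol, with no test. On that scale Gdf9 stood at 2965 and 3272 CPM in siCtrl and at a median of 11139 CPM in young oocytes. The log2 differences were taken between the means of the 2 groups, with a pseudocount of 1 CPM, and Gdf9 differed by -1.80. Bmp15 differed by -0.98, Bmp6 by -1.22, Kit by -2.05, Fgf8 by -0.08 and Kitl by -0.25, and the median gene by -0.19.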

How the data were processed

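The deposited values were unnormalised read counts per gene, in 1 table for the pools and 1 for the single oocytes. Per the submitters' processing notes, the tools and build include STAR 2.7.10b, HTSeq 0.13.5 and mm10, with no role given; the strand setting and any filter are not stated. The 6 members and the gene lists were chosen with earlier results of these data known. Pools were tested with edgeR 4.0.16 in R 4.3.3 (robust quasi-likelihood, TMM, minimum count 10 and minimum total 15, Benjamini-Hochberg over 11136 genes, adjusted p under 0.05). DESeq2 1.42.0, limma-voom 3.58.1 and 7 further settings were alternatives. SE is the absolute log2 fold change over the square root of F. Single-oocyte counts were summed by group and given as CPM without ERCC counts, with a pseudocount of 1 CPM for log2 ratios. Genes named beyond the members are the called pathway genes, the 2 of highest CPM in each list and the 5 of highest rho; 1 called pathway gene is not reported here. Lengths are exonic unions of GENCODE. Tests were checked on simulated data.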

Additional observations from a re-analysis of the deposited data

How the results depend on the processing

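Depth limited Fgf8 and Kitl, with 68 to 128 reads per pool. Across 54 alternative values, the pool fold changes of the members kept direction and call in 50, with Gdf9 losing its call without siCtrl 1 or 2 and Bmp6 turning to -0.17 without siCtrl 2 and -0.01 without siPlat 2 (0.44 at the highest, without siCtrl 1). Members called ranged from 0 to 1 when 1 pool was left out. All genes called numbered 394, 678 with DESeq2 and 157 to 1145 when 1 pool was left out, and pathway genes called 1 to 15. The labels do not state whether same-numbered pools are paired. Their deviations from the group means had a correlation of -0.06, which cannot decide this with 2 pools per group. With the replicate block, 273 genes, 1 member and 2 pathway genes were called, and Bmp5 (adjusted p = 0.0799) was not. The members at least 1.5-fold lower in aged oocytes numbered 1, but 0 without libraries above 5% or above 2% mitochondrial share, 5 among only those above 5% (where 4407 of 7872 genes were lower; Fgf8, counted among the 5, was under the 5 CPM minimum) and 6 with ERCC scaling (7951 of 8303 genes). The median Bmp15 share was 12.6 points higher in aged oocytes and 7.99 points higher without those above 5%. The difference between pools was 7.62 to 8.999 points with 1 pool left out. With Pearson correlation of log2 values, 3 of the 5 nearest genes of Gdf9, 2 of Bmp6 and 3 of Kit were shared, and 4 of Bmp15. The causes of these changes were not tested.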
